A study of Quercus robur with 12 samples.

Results

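The miR395 family was followed in the growing root tips of pedunculate oak (Quercus robur) seedlings. Its members were taken by name, as every miRNA of the deposited count table whose name starts with qrb-miR395. The table holds 75 miRNAs, with 51 known miRNAs of 23 families and 24 that carry a sequence in place of a name. The rule found 6 members, qrb-miR395a, qrb-miR395b, qrb-miR395c, qrb-miR395d, qrb-miR395e and qrb-miR395f (the prefix is mostly left out below). Their mature sequences and genome positions were not used here.

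miR395 is known, mainly from Arabidopsis, as the microRNA of sulfate assimilation. There it rises when sulfate is scarce, and it directs the cleavage of the mRNAs of ATP sulfurylases, the enzymes that activate sulfate in the first step of assimilation, and of a sulfate transporter of the vascular tissue that moves sulfate between root and shoot. The family is usually encoded by several loci whose mature sequences differ at few positions or not at all. Reads of such sequences can match more than one member, so the division of counts among members is less certain than the family total. How the counting assigned such reads was not tested.

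The libraries hold small RNAs of the root meristem, sampled from taproots (TR) and from lateral roots (LR) of wild-type seedlings. Control plants (CT) were fully watered, and drought-stressed plants (DS) had their water reduced by 75% for 4 weeks, which followed 8 weeks of acclimatization. The 4 groups, TR-CT, TR-DS, LR-CT and LR-DS, had 3 libraries each, and every library was made from 10 to 15 pooled root tips. All groups shared the peat and perlite substrate and the fertilizer. Seedlings had been raised in containers and transplanted, or sown as acorns in the rhizotrons, which are flat transparent growth chambers. The greenhouse was shared from transplanting onward, while the container stage is described as at Jarocin. The study's methods name both kinds of seedlings for the water shortage, but the labels do not say which cultivation a library came from. A difference in cultivation between groups therefore cannot be told apart from one in watering or in root type. A table of miRNAs holds no marker gene of a root tissue, so the tissue labels could not be checked.

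The values are read counts, which summed to between 160039 and 1267473 per library, the lowest in LR-DS replicate 3. A single 16-nt sequence took between 34.1% and 89.1% of a library. It took 34.1% to 60.6% in LR-CT and 83.7% to 86.2% in LR-DS. Scaling by library size and by TMM factors gave different levels for the same counts, and the part of this sequence in that was not tested. Over the 69 miRNAs outside the family, each of the 6 lateral root libraries correlated best with a library of its own group. Of the taproot libraries this held for TR-CT replicate 2 alone. TR-CT replicate 3 was closest to LR-DS replicate 2 (Pearson r of log2 CPM 0.953, against 0.835 and 0.849 with its own group), and TR-DS replicate 2 was closest to TR-CT replicate 2 (0.948, against 0.751 and 0.869). TR-DS replicate 3 was also closest to LR-DS replicate 2 (0.895, against 0.751 and 0.851), and so was TR-DS replicate 1 (0.947, against 0.851 and 0.869). TR-CT replicate 1 was closest to LR-CT replicate 2 by a smaller margin (0.962, against 0.849 and 0.951). Family totals of the comparisons that include taproots are given with these libraries and without at least 1 of them. Fewer cells of a type and less RNA per cell cannot be told apart in such bulk samples.

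The miR395 family was a rare family in oak root tips. Its members had 616 of 8624045 counts over the 12 libraries, or 0.00714%, and the family ranked 19th of the 23 known families. The median total of a miRNA of the table was 2152 counts. miR395e, the leading member, had 225 counts and ranked 59th of 75. miR395c had 95 counts, miR395d 86, miR395b 76, miR395f 75 and miR395a 59, which placed these 5 members between rank 68 and rank 73. Each member was counted in several libraries, but none in all of them. miR395d and miR395e had counts in 10 of the 12 libraries, miR395c in 9, miR395b and miR395f in 8 and miR395a in 7. Of the 72 values of a member in a library, 20 were 0. The smallest amount taken as detectable was 3 counts, which stood for between 2.37 and 18.7 CPM (counts scaled to the depth of the library) depending on the depth, with the highest floor in LR-DS replicate 3. Such floors and all counting intervals below describe the sampling of reads and no other error, and no molecular identifiers are described for these reads.

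The family counts of replicates 1, 2 and 3 of the TR-CT group were 51, 24 and 109. The TR-DS libraries gave 24, 4 and 106. In lateral roots the family was counted 9, 123 and 80 times with full watering and 65, 19 and 2 times under drought stress. Every group therefore held a library with few family counts and a library with many, and the groups overlapped in all comparisons. After TMM scaling the family stood at 74.1, 33.7 and 327 CPM in TR-CT and at 89.1, 9.29 and 121 CPM in TR-DS. In lateral roots it stood at 6.41, 79.4 and 43.7 CPM in LR-CT and at 110, 26.2 and 13.4 CPM in LR-DS. The group means of log2 CPM were ordered TR-CT (6.60 ± 1.62, SD, n = 3), TR-DS (5.67 ± 1.84), LR-DS (5.22 ± 1.45) and LR-CT (5.01 ± 1.66). Each step of that order was smaller than the SD of either neighbour. TR-CT replicate 3, one of the libraries that stood apart, had the highest TMM level of all 12. With library size alone the group means were 99.5 CPM (TR-CT), 65.1 CPM (TR-DS), 77.6 CPM (LR-CT) and 35.5 CPM (LR-DS), so that LR-CT moved from the lowest place to the second.

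**Figure D1:**
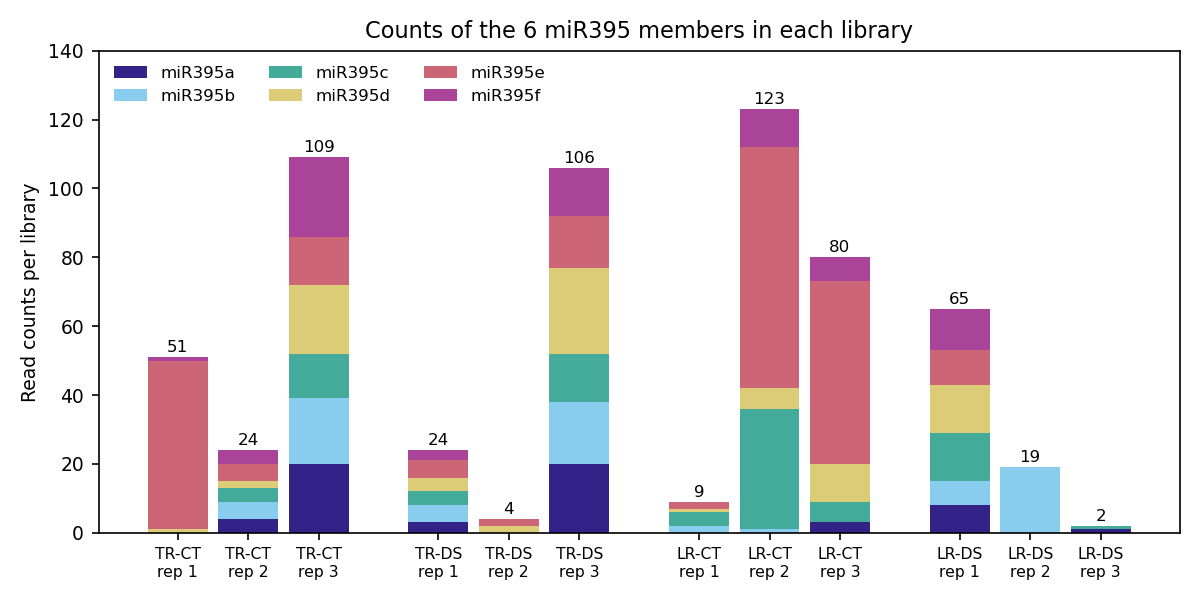
Read counts of the 6 miR395 members (stacked colours) in each of the 12 libraries, with the family total above each bar. Totals ran from 2 to 123, every group held low and high libraries, and miR395e filled most of the bar in TR-CT replicate 1 and in LR-CT replicates 2 and 3.

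**Figure D2:**
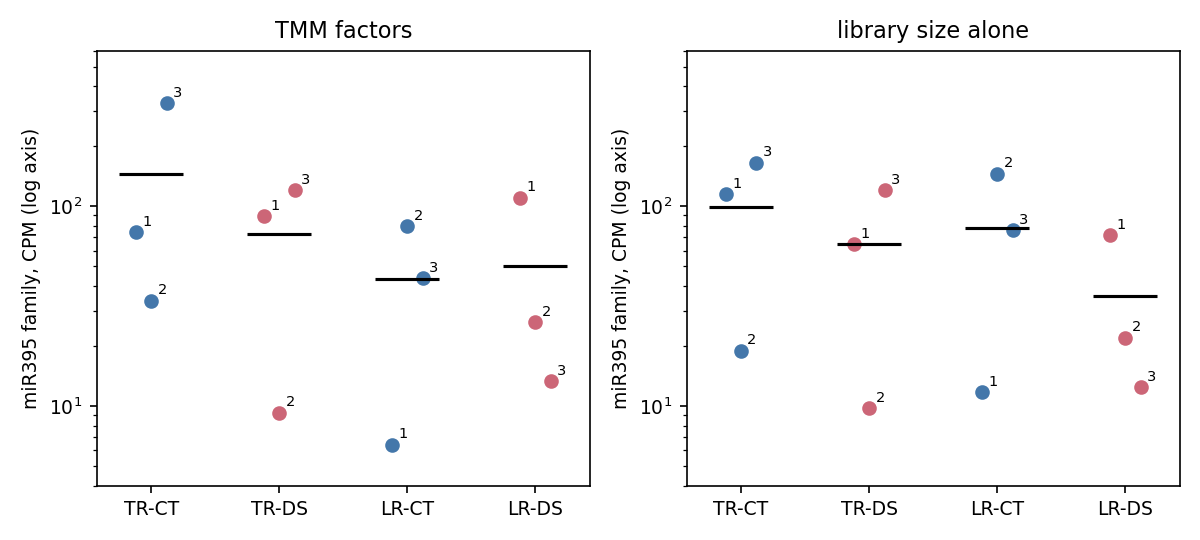
Level of the miR395 family in CPM (log axis) in each library (points, numbered by replicate; blue, control; red, drought stress), with TMM factors on the left and library size alone on the right. Bars are arithmetic group means, and the points of every group overlapped those of the others under both scalings.

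The composition of the family differed between libraries. An equal share of 6 members would be 16.7%, and 9 libraries had at least 10 family counts. In 5 of these (TR-CT replicates 2 and 3, TR-DS replicates 1 and 3 and LR-DS replicate 1) the 95% Wilson interval of every member held the equal share. In TR-CT replicate 3, for example, miR395a to miR395f had 20, 19, 13, 20, 14 and 23 counts. In TR-DS replicate 3 they had 20, 18, 14, 25, 15 and 14. No member stood out from the equal share in these 5 libraries at their depth.

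In the other 4 libraries 1 member dominated. miR395e held 49 of the 51 counts of TR-CT replicate 1 (96.1%, interval 86.8% to 98.9%). It held 70 of 123 counts in LR-CT replicate 2 (56.9%, 48.1% to 65.3%) and 53 of 80 in LR-CT replicate 3 (66.3%, 55.4% to 75.7%). All 3 were control libraries, from both root types, and they were the only libraries where the interval of miR395e lay above the equal share. In LR-CT replicate 2 miR395c, with 35 counts, was next to miR395e. In LR-DS replicate 2 all 19 counts were of miR395b, and miR395e had none, with an interval reaching up to 16.8%. miR395e supplied 36.5% of the family over all libraries (32.8% to 40.4%).

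**Figure D3:**
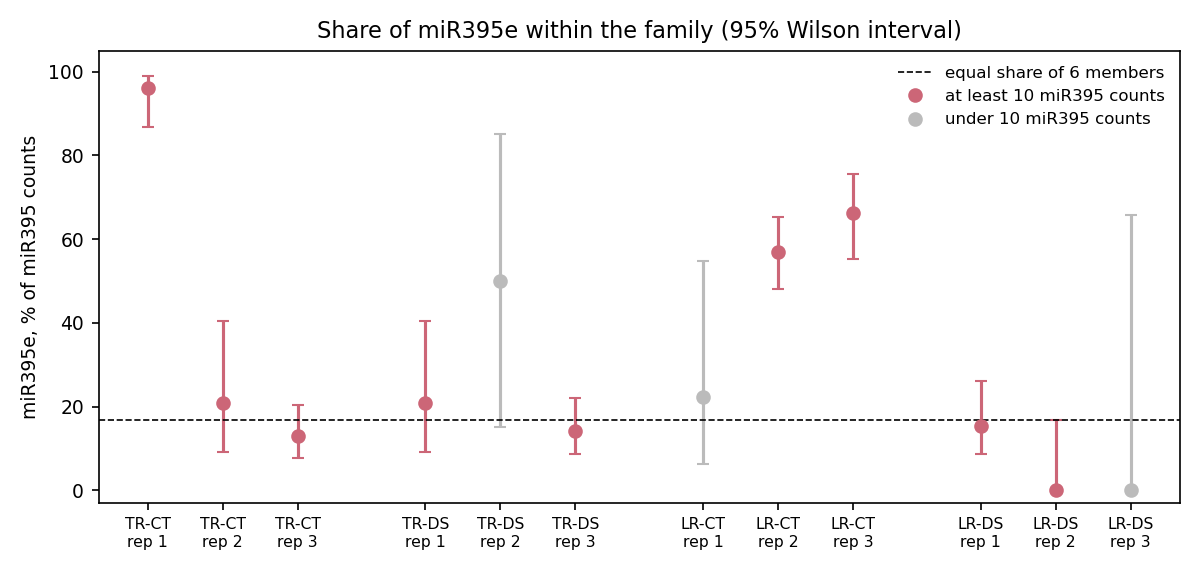
Share of miR395e in the miR395 counts of each library with its 95% Wilson interval; the dashed line is the equal share of 6 members, and grey points are libraries with under 10 family counts. The share was 96.1% in TR-CT replicate 1, 56.9% and 66.3% in LR-CT replicates 2 and 3, and at most 20.8% in the other red points with at least 10 counts.

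A share within the family does not depend on the scaling between libraries, and it was compared over the 9 libraries with at least 10 family counts. The member compared, miR395e, was taken as the one with the most counts summed over the same 12 libraries. Of its 225 counts, 49 came from TR-CT replicate 1, and 70 and 53 from LR-CT replicates 2 and 3. The drought contrast of its share is therefore not independent of that choice, and its p-values are given as a description. The share of miR395e in control libraries was 96.1%, 20.8% and 12.8% in TR-CT and 56.9% and 66.3% in LR-CT. Under drought stress it was 20.8% and 14.2% in TR-DS and 15.4% and 0% in LR-DS. Both control libraries of lateral roots lay above both drought libraries, whereas in taproots the control libraries spanned the drought libraries. The mean was 50.6% ± 34.1 (SD, n = 5) in control and 12.6% ± 8.88 (n = 4) under drought stress, a difference of -38.0 percentage points that did not pass the two-sided exact permutation test (p = 0.111, where 126 arrangements allow no p below 0.0159). Without 1 library at a time the difference stayed between -47.4 and -26.6 points, with exact permutation p-values between 0.0571 and 0.25. The share did not separate the root types either, at 32.9% ± 35.5 (n = 5) in taproots and 34.6% ± 32.0 (n = 4) in lateral roots (difference 1.69 points, two-sided exact permutation p = 0.921). Adjusted for the 2 contrasts by the Benjamini-Hochberg method, the exact p-values were 0.222 and 0.921.

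The response to drought stress in lateral roots was tested with edgeR's quasi-likelihood test over all 75 miRNAs, with Benjamini-Hochberg adjustment over all of them (FDR). Of all miRNAs, 32% passed an FDR of 0.05 (9.33% higher and 22.7% lower under drought stress), and of the miR395 members 1 of 6 did. The split over all miRNAs was 7 higher and 17 lower with TMM factors, 2 and 33 with library size alone, and 14 and 9 with the library size without the most abundant sequence. qrb-miR395b was counted 2, 1 and 0 times in the control libraries and 7, 19 and 0 times under drought stress. The libraries with 7 and 19 counts were both drought-stressed, but the third drought library had none, so that the groups overlapped. That library, LR-DS replicate 3, had the fewest counts in all, and its floor of 3 counts stood for 18.7 CPM. The log2FC was 4.23 with a standard error of 1.39 (95% interval 1.26 to 7.21, FDR 0.0294 in edgeR's quasi-likelihood test). The control group rests on 3 counts in all, and the fitted value of such a miRNA depends on the prior count. The ratio of summed counts after TMM scaling was 28.1 (exact counting interval 8.60 to 145), and 15.0 (3.42 to 89.7) without LR-DS replicate 2, which held 19 of the 26 counts. With library size alone these ratios were 12.0 (3.68 to 61.9) and 5.86 (1.34 to 35.1).

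The call of miR395b depended on the scaling and on single libraries. With library size alone the log2FC was 3.12 (FDR 0.0732, edgeR's quasi-likelihood test), and the median over all 75 miRNAs moved from -0.29 to -1.45. Without LR-CT replicate 2, LR-CT replicate 3 or LR-DS replicate 2 the log2FC was 4.17, 3.61 and 3.36, and the FDR 0.112, 0.189 and 0.0979. In 1 fit of all 12 libraries the log2FC was 4.08 and the FDR 0.217. The FDR remained below 0.05 without any 1 of the other 3 libraries, and with DESeq2 (log2FC 4.75, FDR 0.0228), which called 31 of all 75 miRNAs. In edgeR's quasi-likelihood test the call was also kept with 2 other scalings. The log2FC was 4.67 with RLE factors (FDR 0.0314) and 4.90 with library size without the most abundant sequence (FDR 0.0276). The share of the most abundant sequence, given above, was higher in every LR-DS library than in every LR-CT library, and its part in the call was not tested beyond these scalings.

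The other members of lateral roots did not pass. qrb-miR395a was counted 0, 0 and 3 times with full watering against 8, 0 and 1 times under drought stress, with a log2FC of 3.22 (SE 1.65, FDR 0.149). qrb-miR395e was counted 2, 70 and 53 times with full watering against 10, 0 and 0 times under drought stress, and was the member with the lowest log2FC, -1.92 (SE 1.39, FDR 0.314). Its control replicates 2 and 3 lay above every drought library, while replicate 1 lay below the drought library with 10 counts. qrb-miR395c gave 4, 35 and 6 counts against 14, 0 and 1. qrb-miR395d gave 1, 6 and 11 against 14, 0 and 0, and qrb-miR395f gave 0, 11 and 7 against 12, 0 and 0. In these 3 members the highest drought library was replicate 1 and the others were at 0 or 1, and the log2FC values of 0.13, 1.30 and 1.06 had standard errors between 1.31 and 1.48. They fell below 0 with library size alone, at -1.20, -0.011 and -0.26. For miR395e the same scaling gave a log2FC of -3.23 (SE 1.39, FDR 0.0708 in the quasi-likelihood test of edgeR). No member passed in that fit, where miR395b had an FDR of 0.0732. With the library size without the most abundant sequence, miR395e stood at -1.20 (SE 1.36, FDR 0.496 in the same test).

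Over the 6 members the median log2FC in lateral roots was 1.18, with 5 above 0. Over all miRNAs tested the median was -0.29, with 34 of 75 above 0. With library size alone the members' median was -0.13, with 2 above 0. The family total had a log2FC of 0.28 (SE 0.94) by TMM and -1.04 (SE 0.93) by library size. Without 1 library at a time the TMM value ranged from -0.43 (without LR-DS replicate 1) to 1.05 (without LR-CT replicate 2). It was also below 0 without LR-CT replicate 1, at -0.24. No member and not the family total had groups without overlap, which held for 46.7% of all miRNAs in this comparison.

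In taproots the quasi-likelihood test of edgeR called no member at the same threshold, as was so for every miRNA (0% of 75). At an unadjusted p of 0.05 the count of members was also 0 (3 of all 75 miRNAs), and DESeq2 called no member (1 of all 75). In both groups replicate 3 held most of the counts of every member except miR395e in TR-CT. miR395d was counted 1, 2 and 20 times in control libraries against 4, 2 and 25 times under drought stress, with a log2FC of 0.45 (SE 1.71). miR395f had 1, 4 and 23 against 3, 0 and 14 (-0.67, SE 1.89). miR395e had 49, 5 and 14 against 5, 2 and 15, and its log2FC of -0.87 (SE 1.38) was the lowest of the 6. For miR395e the highest control library was replicate 1, in which the other 5 members had 2 counts together.

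miR395a (0, 4 and 20 counts, then 3, 0 and 20 under drought stress), miR395b (0, 5 and 19, then 5, 0 and 18) and miR395c (0, 4 and 13, then 4, 0 and 14) had a log2FC of -0.10, 0.019 and 0.19. Their standard errors, 1.91 to 2.04, were above the median of 1.19 over all miRNAs, so changes of several fold in either direction lay within their 95% intervals. The median of the 6 members was -0.041 beside 0.019 for all miRNAs (-0.0047 and -0.49 with library size alone), and the family total stood at -0.21 (SE 1.21). These values depended on single taproot libraries. Without TR-CT replicate 3 and TR-DS replicate 2 together, a choice made after the data were seen, the log2FC of the family was 1.47 (SE 0.92) and that of miR395d 3.65 (FDR 0.115, edgeR's quasi-likelihood test), and again no member passed. Without TR-CT replicate 3 alone the family stood at 0.96 (SE 1.33), without TR-DS replicate 2 alone at 0.30 (SE 1.22), and without TR-DS replicate 3, which held 106 of the 134 family counts of TR-DS, at -1.17 (SE 1.37). It was -0.84 (SE 1.55) without TR-CT replicate 1, -0.59 (SE 1.36) without TR-CT replicate 2 and -0.077 (SE 1.54) without TR-DS replicate 1. No member had groups without overlap in taproots, where 4% of all miRNAs did.

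**Figure D4:**
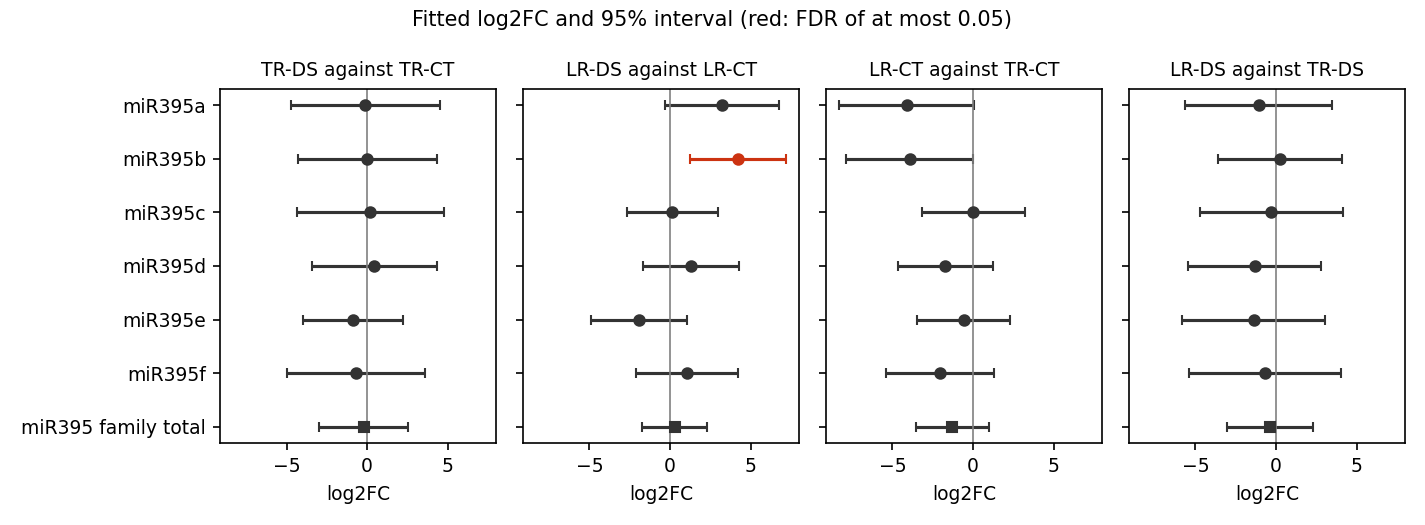
log2FC of each miR395 member (circles) and of the family total (squares) with 95% intervals from edgeR's quasi-likelihood fit, by comparison; drought panels give DS against CT and root type panels LR against TR. Of the 24 member values only miR395b in LR-DS against LR-CT (4.23) passed an FDR of 0.05, a call that was lost with library size alone.

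An interaction term in a fit of all 12 libraries asked whether drought acted differently in lateral roots and taproots. edgeR called no member (0% of all 75 miRNAs), also without adjustment at a p of 0.05 (5 of all 75). DESeq2 called no member either (1 of all 75). The interaction of miR395b was 4.71 (SE 2.53, FDR 0.656 in edgeR's quasi-likelihood test) and that of miR395a 4.03 (SE 2.72). The call of miR395b in lateral roots is therefore not shown to differ from taproots. The interaction of the family total was 1.22 (SE 1.71), beside a median of 0.33 over all miRNAs. It was -0.49 with library size alone, which moved that median to -0.92, and -0.70 without TR-CT replicate 3 and TR-DS replicate 2 together, -0.19 without TR-CT replicate 3 alone and 1.83 without TR-DS replicate 3.

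Lateral roots were next compared with taproots. In well-watered plants edgeR called no member (0% of all miRNAs), and none without adjustment at a p of 0.05, where 5 of all 75 miRNAs stood. DESeq2 also called no member (1 of all 75 miRNAs), with 2 members and 14 of all 75 miRNAs at that p before adjustment. The lowest values were those of miR395a and miR395b, each with a sum of 24 counts in taproots against 3 in lateral roots. Their log2FC values were -4.12 (SE 1.76) and -3.93 (SE 1.65), both at FDR 0.430 by the quasi-likelihood test of edgeR. Most of the taproot counts came from TR-CT replicate 3, which held 20 of those of miR395a and 19 of those of miR395b. The ratio of summed counts after TMM scaling, 21.9 for either member (exact counting interval 6.65 to 114), was 4.52 (0.765 to 30.9) for miR395a and 5.65 (1.10 to 36.4) for miR395b without that library. With library size alone it was 8.99 for either member (2.73 to 46.7). Without that library it was then 2.08 (0.351 to 14.2) for miR395a and 2.60 (0.505 to 16.7) for miR395b.

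The other members of well-watered plants had log2FC values of 0.025 (miR395c), -1.71 (miR395d), -0.58 (miR395e) and -2.02 (miR395f). The members' median was -1.86 beside -0.20 for all miRNAs, and the family total stood at -1.27 (SE 0.95). Without TR-CT replicate 3 the family total was -0.40 (SE 0.84), miR395d 0.62, miR395f -0.14 and miR395c 1.48. With library size alone the family total was -0.35 (SE 1.17), and the members' median was -0.92 while that of all miRNAs rose to 0.68. Groups did not overlap for 21.3% of all miRNAs and for no member.

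Under drought stress edgeR called no member between the root types either (0% of 74 miRNAs, and before adjustment at a p of 0.05 no member and 4 of all 74). DESeq2 called no member (0 of all 74). The log2FC ranged from -1.37 in miR395e to 0.25 in miR395b, with standard errors between 1.84 and 2.27, and the family total stood at -0.38 (SE 1.21), at -0.91 (SE 1.00) without TR-DS replicate 2 and at 0.61 (SE 1.29) without TR-DS replicate 3. The 2 root type comparisons use different libraries, whereas each shares its libraries with the drought comparisons. Groups did not overlap for 6.76% of all miRNAs and for no member.

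Over both waterings, with watering as a term of the fit, all 6 members had a log2FC below 0 for lateral roots against taproots, from -2.75 (miR395a, SE 1.64) to -0.29 (miR395c, SE 1.25), but miR395c moved to 0.46 with library size alone and to 0.72 without TR-CT replicate 3. Their median was -1.62 beside -0.29 for all miRNAs (-0.96 and 0.22 with library size alone), and 29 of all 75 miRNAs were above 0. The family total stood at -1.13 (SE 0.88), or -0.43 (SE 0.85) without TR-CT replicate 3. edgeR's quasi-likelihood test called no member (0% of all miRNAs), with FDR values between 0.578 and 0.978 and none below 0.05 before adjustment (6 of all 75). DESeq2 called no member (0 of all 75).

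The members moved unevenly with each other across the 12 libraries, in log2 CPM. Pearson r was between 0.497 and 0.930 for the 10 pairs that leave out miR395e and between 0.044 and 0.617 for its 5 pairs. These values describe libraries that share depth and scaling, and 20 of the 72 values behind them are counts of 0. The miRNAs outside the family whose level was most like the family total over the 12 libraries, among 55 with enough counts, were miR398a (Pearson r 0.890), miR396c (0.853) and miR398b (0.818). miR398 is known in Arabidopsis to target copper/zinc superoxide dismutases, and miR396 growth-regulating factors.

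Other families known to respond to nutrients in Arabidopsis were listed beside miR395, for phosphate, copper and nitrogen, and 4 of their miRNAs were in the table. In lateral roots 1 of the 4 passed in edgeR's quasi-likelihood test, against the background of 32% given above. This was miR2111a, a miRNA of phosphate starvation, which had 11, 45 and 33 counts with full watering and 0 in all 3 drought libraries and was thus lower under drought stress (FDR 0.0184, edgeR's quasi-likelihood test). The copper miRNAs miR398a, miR398b and miR408a did not pass there, with log2FC values of 0.30, -0.0048 and -0.48 (SE 0.50, 0.54 and 0.54). In taproots none of the 4 passed, with log2FC values from -0.35 to 1.01. The standard errors of the copper miRNAs in lateral roots lay below those of the miR395 members, which ran from 1.31 to 1.65.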

How the data were processed

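Counts per mature miRNA were deposited by the authors without normalization. According to the study's methods, Cutadapt trimming with a minimum length of 15 nt came first, and ShortStack, which maps with Bowtie, then counted the known sequences of miRBase. Versions are not given in the sources used here. Groups and replicates came from the titles of the samples, and the 12 columns of the table were matched to them by name. The column names of TR-CT replicate 1 and LR-DS replicate 3 differed from the samples' own descriptions, and these columns were taken by the titles. Columns of per-sample values left unused numbered 0. The members and the lists of miRNAs were chosen with earlier results of these data known.

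Each comparison was fitted to the deposited counts with edgeR 4.0.16 in R 4.3.3 (TMM factors, between 0.510 and 1.84 over the 12 libraries, a minimum of 1 count over the fitted libraries, quasi-likelihood F test, 1 mean per group, Benjamini-Hochberg adjustment, threshold 0.05). The main root type fit over both waterings had watering as a term. Standard errors were obtained from the log2FC and the F statistic. A prior count of 2 entered log2 CPM. The family total, the sum of the members' counts, replaced the members in a fit of its own and was given no p. Shares were compared by two-sided exact permutation tests (scipy 1.17.1), and intervals of shares are Wilson intervals of 95%. The named miRNAs were every member and the 3 miRNAs with the highest Pearson r with the family total, among those with at least 10 counts in at least 6 libraries. Replicates differed by more than sampling noise, the chi-square per degree of freedom being 25.2 to 3602 for the pairs. Depth was 160039 to 1267473 counts per library. Alternatives were library size alone, RLE factors, library size without the most abundant sequence, other filters, DESeq2 1.42.0, 1 fit of all 12 libraries, blocking on the replicate number and leaving out each library. Gene expression and degradome data were not analysed here.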

Additional observations from a re-analysis of the deposited data

How the results depend on the processing

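Low counts limit these results, with 20 of the 72 member values at 0, and standard errors reach 2.72. In lateral roots the number of members that passed for drought fell from 1 to 0 with library size alone, with the replicate block and with 1 fit of all 12 libraries (miR395b FDR 0.0732, 0.437 and 0.217 in edgeR's quasi-likelihood test; range over all alternatives 0.0192 to 0.437), and ranged from 0 to 1 without 1 library at a time. In the other comparisons it was 0 under every alternative run. filterByExpr left no member in the fits of drought or of root type under drought, so it gave no value there. Same-numbered libraries did not deviate together throughout (correlations of -0.288, 0.683 and 0.322 between TR-CT and TR-DS, and -0.233, -0.060 and -0.024 between LR-CT and LR-DS), so the numbers are not taken as pairs. Causes of the changes below were not tested.

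Values whose sign changed are log2FC, and none of these values passed the threshold. With the replicate block, miR395a for drought in taproots was 0.26, miR395d and miR395f in lateral roots -0.034 and -0.085, miR395b for root type under drought -0.010, and miR395c -0.17 for the interaction and 0.23 over both waterings. With library size alone, miR395c, miR395d and miR395f for drought in lateral roots were -1.20, -0.011 and -0.26, the interaction was -1.47 for miR395c, -0.49 for miR395d and -0.49 for the family total, miR395b for root type under drought was -0.10, miR395e in well-watered plants 0.025 and miR395c over both waterings 0.46. RLE factors and DESeq2 gave, in this order, 0.16 and 0.13 for miR395a in taproots, -0.070 and -0.10 for miR395b under drought, and -0.19 and -0.18 (interaction) and -0.44 and -0.50 (well watered) for miR395c. Library size without the most abundant sequence gave -0.098 for miR395b in taproots, 0.13, 0.52 and -0.22 for miR395c over both waterings, under drought and well watered, and 0.14 for miR395f under drought. The fit of all 12 libraries gave -0.63, -0.44 and -0.32 for miR395b, miR395c and miR395d in taproots, and 0.0026 and -0.55 for miR395c under drought and well watered. Without TR-CT replicate 3 and TR-DS replicate 2 together (added after seeing the data), miR395a and miR395f in taproots were 2.82 and 2.20, the interaction was -0.70 for the family total, -2.28 for miR395c, -2.02 for miR395d and -0.88 for miR395f, and miR395c over both waterings was 0.46.

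Without 1 library at a time, drought in taproots ranged from -1.55 to 2.23 for miR395a, -0.82 to 2.02 for miR395b, -0.62 to 2.00 for miR395c, -0.52 to 3.22 for miR395d and -1.76 to 1.63 for miR395f, with the ends set by TR-DS replicate 3 and TR-CT replicate 3. Drought in lateral roots ranged from -2.14 to 1.71 for miR395c, -4.98 to 2.02 for miR395d and -4.96 to 1.87 for miR395f, each lowest without LR-DS replicate 1. Root type under drought ranged from -2.49 to 0.32 for miR395a, -1.27 to 1.06 for miR395b, -2.18 to 0.53 for miR395c and -5.26 to 0.50 for miR395f, each highest without TR-DS replicate 3. Root type in well-watered plants ranged from -1.32 to 1.48 for miR395c, -2.34 to 0.62 for miR395d and -1.17 to 0.67 for miR395e. Over both waterings miR395c ranged from -1.07 to 0.72. The interaction ranged from -1.80 to 1.26 for miR395c, -4.28 to 2.33 for miR395d, -5.81 to 0.22 for miR395e and -3.25 to 3.22 for miR395f, each lowest without LR-DS replicate 1. The root type difference of the miR395e share ranged from -8.85 to 17.5 percentage points without 1 library and was -8.995 over all libraries with at least 1 count. Of the 592 values of single members under the alternatives, 79 changed sign, 6 lost the call and 507 kept direction and side of the threshold.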
